A study of Mus musculus with 6 samples.

Results

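Marker genes of granulosa and cumulus cells were examined in oocytes that had been stripped of those cells. The set comprised Inha, Inhba, Inhbb, Fshr, Gja1, Kitl, Amh, Foxl2, Nr5a2 and Cyp19a1, chosen by name. A probe set, the group of short probes that reads 1 transcript on the array, belonged to the set if the platform annotation gave it one of these symbols alone. This gave 23 of 45037 probe sets, for 9 of the 10 genes. Cyp19a1, the aromatase gene, had no probe set under that rule and was not analysed here.

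The arrays held RNA of fully grown oocytes at the germinal vesicle (GV) stage, which still have their nucleus in meiotic prophase. XY oocytes came from 3 B6.Y(TIR) females, which carry a Y chromosome from Tirano in a C57BL/6 genome and develop ovaries. XX oocytes came from 3 females that were littermates of XY animals. All females were 25 to 29 days old, received 5 IU of equine chorionic gonadotropin, which acts like follicle-stimulating hormone (FSH), and were killed 45 to 47 hours later. Oocytes were freed from large antral follicles by puncture, denuded of cumulus cells by repeated pipetting, and only those with an intact GV and no sign of degeneration were kept. Each array carried 10 oocytes of 1 female, so the females are the replicates, with 3 arrays per genotype. XO females and growing oocytes, which the protocols also mention, were not analysed here. The RNA was amplified in 2 cycles from oligo(dT) primers, which favours the 3' ends of transcripts. In such a bulk sample, fewer cells of a type and less RNA per cell cannot be told apart.

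In an antral follicle the oocyte is surrounded by cumulus cells, and mural granulosa cells line the wall. Both are granulosa cells, joined to each other and to the oocyte by gap junctions, and they respond to FSH. They secrete inhibin and activins, which are dimers built from the products of Inha, Inhba and Inhbb. They also make KIT ligand, which acts on the receptor KIT of the oocyte. Their RNA is used as a sign of somatic cells that remain attached to an oocyte.

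The labels were checked first. Uba1y, a Y-linked ubiquitin-activating enzyme gene, read 4631, 3565 and 3793 in XY 1, XY 2 and XY 3, against 13.6, 26.8 and 5.91 in XX 1, XX 2 and XX 3. Eif2s3y, a Y-linked translation factor gene, read 673, 474 and 352 in XY and 0.241, 18.3 and 0.288 in XX on its brighter probe set. All values of this kind are the deposited intensity of 1 probe set on 1 array, on a linear scale. The oocyte identity was clear on each array: all 12 listed oocyte genes, among them Gdf9, Zp2 and Zp3, lay above the range of absent genes described next. Gdf9, an oocyte-secreted growth factor, read 14703, 11779 and 13086 in XY and 13680, 15805 and 16432 in XX. On the RNA controls that follow, XX 1 read like the XY arrays, and XX 2 and XX 3 stood apart. The log2 ratio of the 3' to the 5' Actb control, which grows as transcripts shorten, was 5.90, 5.20 and 5.61 in XY and 5.53, 3.87 and 3.996 in XX 1, XX 2 and XX 3. XX 1 thus lay within the XY range on this measure, and XX 2 and XX 3 below it. The same ratio for the Gapdh control was 4.04, 4.39 and 4.24 in XY and 4.20, 3.03 and 3.53 in XX. The 5' control of 18S ribosomal RNA read 896, 612 and 574 in XY and 626, 3236 and 3620 in XX. On both, XX 1 again lay within the XY range and XX 2 and XX 3 outside it.

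No detection call accompanies the intensities, so genes without a known use in the oocyte served as a yardstick. The 80 probe sets of olfactory and vomeronasal receptors had a median of 13.0, 15.3 and 14.7 in XY and 10.4, 11.5 and 10.9 in XX. Their 95th percentile, called the receptor limit here, was 110.3, 92.6 and 114 in XY 1, XY 2 and XY 3, against 72.8, 78.2 and 90.2 in XX 1, XX 2 and XX 3. On XX arrays, the 20 probe sets of Y-linked genes, whose transcripts cannot be there, reached at most 29.7, 48.9 and 46.7. Probe sets differ in their own background, so this is a rough guide to presence. Of the 23 marker probe sets, 3 lay above the receptor limit on all 6 arrays, all of them of Nr5a2, and 11 lay below it on all 6.

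**Figure D1:**
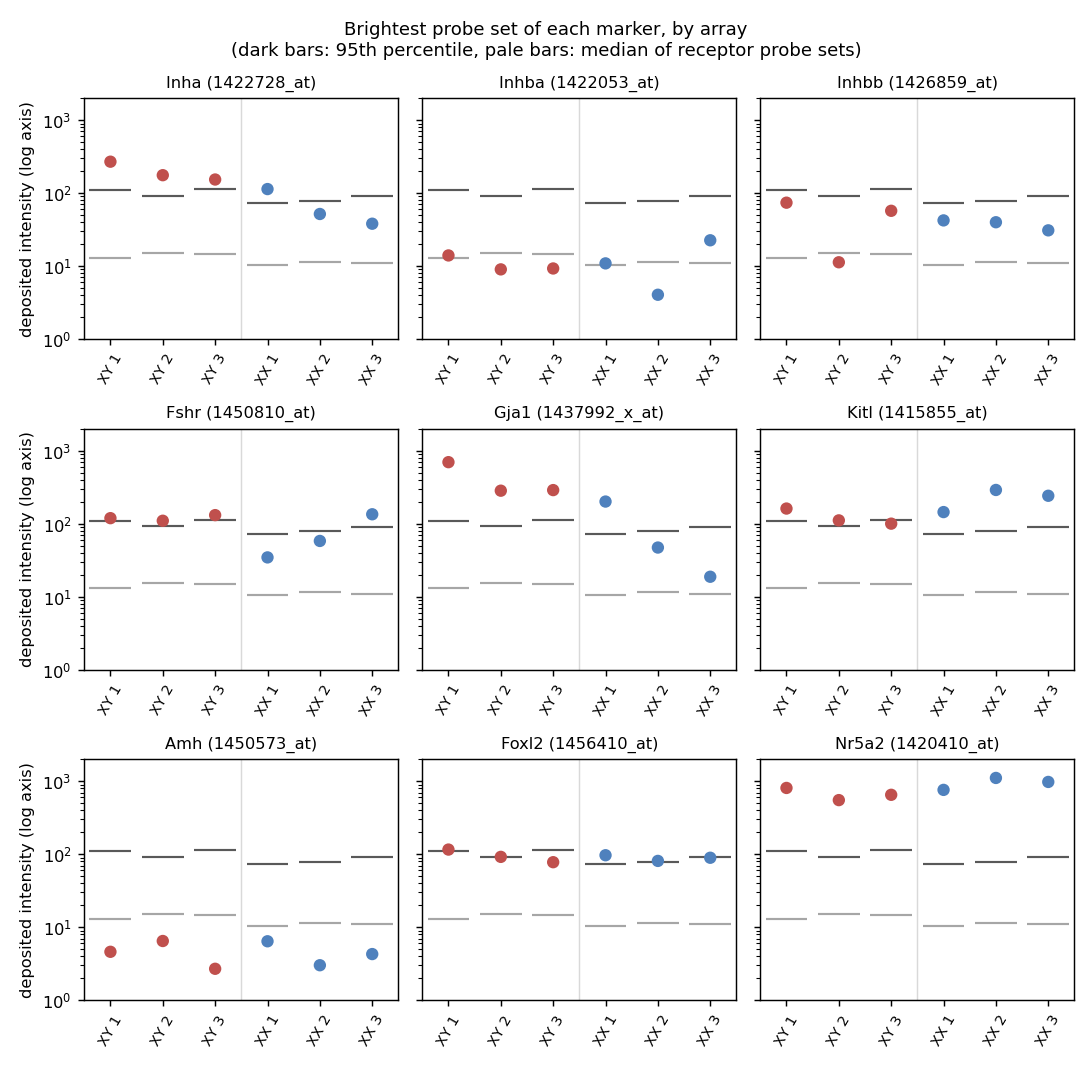
Deposited intensity (log axis) of the brightest probe set of each of the 9 measured markers on each array, XY in red and XX in blue, with the 95th percentile (dark bars) and median (pale bars) of 80 receptor probe sets on that array. Inha and Gja1 lie above the dark bars on the XY arrays and XX 1 and below them on XX 2 and XX 3, whereas Amh and Inhba lie far below them throughout.

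Gja1 and Inha were the markers with the largest differences. Both were high in the 3 XY arrays, intermediate in XX 1 and low in XX 2 and XX 3. Gja1 encodes connexin 43, the gap junction protein that joins granulosa cells to one another. Its brightest probe set (1437992_x_at) read 697, 283 and 289 in XY and 201, 47.1 and 18.7 in XX 1, XX 2 and XX 3. The groups did not overlap, and XX 1 was closer to XY 2 and XY 3 than to the other XX arrays. XX 2 and XX 3 lay below the receptor limit and also below the highest Y-linked probe set of their own array. The log2 change, XY minus XX, was 2.59 ± 0.76 (SE, 3 arrays per genotype), with a 95% interval of 0.80 to 4.38 and limma's adjusted p = 0.141, so it did not pass the threshold of 0.05. Fold changes were taken on the log2 scale of quantile-normalized intensity plus 9, which understates those of dim genes.

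Inha encodes the alpha subunit of inhibin, the granulosa hormone that lowers pituitary FSH. Its single probe set (1422728_at) read 269.7, 176 and 154 in XY and 114, 51.8 and 38.1 in XX. The groups did not overlap, and the order of the XX arrays was the one seen for Gja1. All XY arrays and XX 1 lay above the receptor limit, XX 2 and XX 3 below it. The log2 change was 1.58 ± 0.43 (SE), with a 95% interval of 0.57 to 2.59 and limma's adjusted p = 0.119.

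The size of both differences hung on which XX arrays were used. A fit without XX 1 sets XY against XX 2 and XX 3, the arrays outside the XY range on the RNA controls. Without XX 1, Inha (2.09, limma's adjusted p = 0.035) and 3 of the 6 Gja1 probe sets passed, at 3.51 (adjusted p = 0.035), 3.08 (0.0453) and 2.11 (0.0374). The share of all probe sets called higher in XY in that fit was 1.79%, and 3.52% were called in either direction. Against XX 1 alone, the changes were 0.55 for Inha and 0.76 for the brightest Gja1 probe set. With the Actb ratio as a covariate they were 0.67 and 0.84. The part of RNA quality in these differences was not tested beyond this covariate.

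The 6 probe sets of Gja1 share a target transcript and are not independent readings of the gene. The second, 1438945_x_at, read 267, 57.8 and 121 in XY and 73.2, 14.2 and 5.29 in XX, so XX 1 exceeded XY 2. The third, 1415800_at, read 202, 65.7 and 59.6 in XY and 42.4, 5.14 and 1.54 in XX. In both, XX 2 and XX 3 were the lowest arrays. The sets 1438973_x_at and 1438650_x_at had changes of 1.63 and 1.46. The last set, 1415801_at, was dim on every array, from 7.03 to 19.1 in XY and from 0.977 to 13.0 in XX, with a change of 0.48. The suffix x marks sets whose probes can also bind other transcripts, while 1415800_at carries no such mark and had a change of 2.29 ± 0.69 (SE, limma's adjusted p = 0.148).

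**Figure D2:**
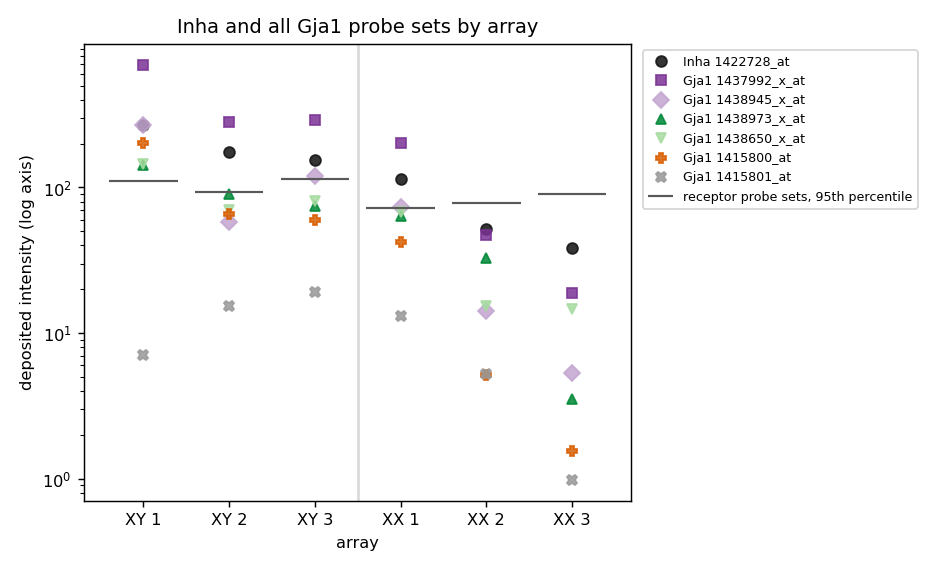
Deposited intensity (log axis) of Inha and of all 6 Gja1 probe sets on each array, XY on the left and XX on the right, with the 95th percentile of 80 receptor probe sets as bars. For Inha and the 5 brighter Gja1 sets, XX 2 and XX 3 are the lowest arrays, and XX 1 lies near the XY arrays.

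Fshr encodes the FSH receptor, which within the follicle is made by granulosa cells. Its probe set read 119, 109.7 and 131 in XY, against 34.5, 58.0 and 135 in XX. XX 3, which was the lowest array for Gja1 and Inha, had the highest deposited Fshr value of all 6. After normalization it lay below XY 2 and XY 3 but above XY 1, so the groups overlapped on both scales. The log2 change was 0.89 ± 0.34 (SE), with a 95% interval of 0.09 to 1.69 and limma's adjusted p = 0.229. The XY values were only a little above the receptor limit, for example 119 against 110.3 in XY 1.

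Upstream sequence is shown for Gja1 and Fshr, which both read higher on average in XY. RefSeq windows of assembly GRCm38.p6 were at hand for 9 of the 10 genes, and for 6 of them the window ended at the outermost annotated start of the gene. In the 250 bases before that start, 5 motifs were searched on both strands: AP-1 (TGANTCA), an E-box (CACGTG), the half-site of the cyclic AMP response element (TGACG), the NR5A site (CAAGGNCA) and a forkhead site (GTAAACA). Capitals mark every match, and matches of different motifs did not overlap. Of the 6 genes, these 2 had a match.
Gja1, chr10:56377050-56377299, + strand: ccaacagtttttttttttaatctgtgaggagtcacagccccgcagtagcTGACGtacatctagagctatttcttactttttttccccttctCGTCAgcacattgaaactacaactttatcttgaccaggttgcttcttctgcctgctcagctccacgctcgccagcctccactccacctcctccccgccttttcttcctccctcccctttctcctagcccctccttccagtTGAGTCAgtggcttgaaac
Fshr, chr17:89200676-89200925, - strand: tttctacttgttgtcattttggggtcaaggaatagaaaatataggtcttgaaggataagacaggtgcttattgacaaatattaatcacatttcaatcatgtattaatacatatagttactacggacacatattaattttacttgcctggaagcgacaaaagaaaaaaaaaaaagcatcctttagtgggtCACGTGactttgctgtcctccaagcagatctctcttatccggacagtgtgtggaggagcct
Gja1 held 2 half-sites and, close to the start, 1 AP-1 match, and Fshr held 1 E-box. Shares were taken over 32851 windows of 250 bases, which included those that did not end at the outermost start. Of these, 6.75% held the AP-1 letters, 6.02% the E-box, 17.8% the half-site, 5.53% the NR5A letters and 3.17% the forkhead letters. A match in these letters is a description of the window only.

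The activin subunit genes did not separate the genotypes. Inhba, which encodes the beta A subunit shared by activin A and inhibin A, read 14.0, 9.02 and 9.28 in XY and 10.9, 4.05 and 22.6 in XX on its brighter probe set. Its second set was dimmer still, and both lay below the array's median on all 6 arrays. Inhbb, for the beta B subunit, read 74.0, 11.3 and 57.3 in XY and 42.3, 39.9 and 30.9 in XX. XY 2 was the lowest array and XY 1 the highest, so the groups overlapped. The log2 changes were -0.15 (95% interval -0.92 to 0.62) for Inhba and -0.07 (-1.31 to 1.16) for Inhbb, and with trimmed-mean scaling they were 0.13 and 0.27. The second Inhbb set, 1426858_at, had a change of -0.60 (95% interval -1.55 to 0.35). Unlike Inha, neither gene had all XY arrays above all XX arrays, and a difference between the genes was not tested.

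Amh encodes anti-Müllerian hormone, which granulosa cells of growing follicles secrete. It read 4.60, 6.47 and 2.69 in XY and 6.42, 3.01 and 4.28 in XX. Every array was below the median of the receptor probe sets, and the groups overlapped fully. The log2 change was -0.09 with a 95% interval of -0.57 to 0.39, and 0.09 with trimmed-mean scaling. At this level the probe set does not show whether the transcript was there.

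Foxl2 encodes the forkhead factor that maintains granulosa identity in the adult ovary. Its brighter probe set read 116, 92.0 and 77.8 in XY and 96.9, 80.98 and 89.5 in XX. The groups overlapped, all arrays lay within a narrow range about the receptor limit in deposited values. XX 2 and XX 3 were above XY 3 there and slightly below it once normalized. The log2 change was 0.11 ± 0.23 (SE), with a 95% interval of -0.43 to 0.65 and limma's adjusted p = 0.85. It was -0.08 with median scaling. The second set read 3.26 to 28.1 over all arrays.

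Kitl was lower on average in XY, the opposite of Gja1 and Inha. Its brightest probe set (1415855_at) read 161, 111 and 100.1 in XY, against 144, 289.8 and 241 in XX. In deposited values the groups overlapped, since XX 1 lay below XY 1. After quantile normalization they did not, and XX 2 and XX 3 were the highest arrays on both scales. The log2 change was -0.63 ± 0.22 (SE), with a 95% interval of -1.15 to -0.11 and limma's adjusted p = 0.194. The other 3 Kitl sets read 44.8 or less on every array. Of these, 2 had negative changes (-0.68 and -0.35) and 1, 1426152_a_at, a positive one (0.36).

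Nr5a2 encodes LRH-1, a nuclear receptor that granulosa cells need for ovulation. It was the marker that lay furthest above the receptor limit on all arrays. The probe set 1420410_at read 809.6, 552 and 652 in XY and 762, 1110 and 979 in XX, with overlap and a log2 change of -0.16 ± 0.20 (SE, limma's adjusted p = 0.726). The set 1449706_s_at read 471, 293 and 346 in XY and 583, 715 and 594 in XX, with a change of -0.48 (95% interval -1.03 to 0.06). The set 1456521_at went the opposite way, with 321, 193 and 216 in XY against 156, 248 and 237 in XX and a change of 0.40 (-0.04 to 0.84). For 1456521_at the groups did not overlap once normalized, yet the deposited values did. The dim set 1449707_at had a change of -0.47 (-1.05 to 0.11). Thus 3 of the 4 Nr5a2 sets had negative changes and 1 a positive one, with no set past the threshold. Median scaling gave 1420410_at a change of -0.66, and no rescaling gave -0.50.

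Over all 23 marker probe sets, 0 passed limma's adjusted p of 0.05, where 1.37% of all 45037 probe sets did (0.719% higher and 0.651% lower in XY). At an unadjusted p under 0.05, 7 were higher and 1 lower, against 9.15% and 9.41% of all probe sets, or 18.6% in either direction. Of the 7, 5 belonged to Gja1, and the other two were those of Inha and Fshr. In normalized values the groups did not overlap for 5 sets that were higher and 2 that were lower in XY, against 12.6% of all probe sets in each direction. The median log2 change of the 23 was 0.11, and that of all probe sets was -0.00. By the brightest set per gene, 4 of 9 genes had a positive and 5 a negative change, with a median of -0.07 beside 0.04 for all 18193 genes. At an unadjusted p under 0.05, 3 of the 9 were higher and 1 was lower, against 12.6% and 9.25% of all genes, and the groups did not overlap for 2 that were higher and 1 that was lower, against 17.7% and 13.1%. The markers differed in direction among themselves.

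**Figure D3:**
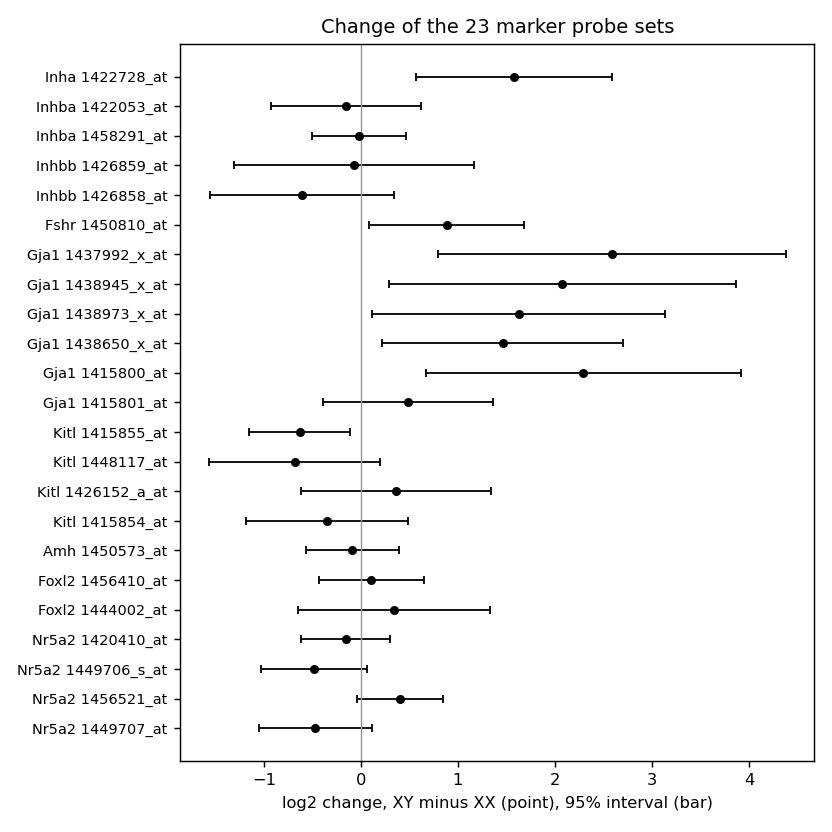
Log2 change (XY minus XX) of the 23 marker probe sets as points, with 95% intervals from limma as bars. The intervals of Inha, Fshr, 5 Gja1 sets and 1 Kitl set leave out 0, and none of the 23 passed after adjustment over all probe sets.

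Taking as a filter that 3 or more of the 6 arrays reach their own median value, 15 of the 23 would have been retained. Of these, the Gja1 sets 1438945_x_at, 1438650_x_at and 1415800_at met it on all 3 XY arrays and only 1 XX array. The 8 that failed were both sets of Inhba, the Amh set and the dimmer sets of Inhbb, Gja1, Kitl, Foxl2 and Nr5a2. The summed intensity of the brightest sets of the 9 genes was 2265, 1350 and 1472 in XY and 1412, 1685 and 1559 in XX, so the groups overlapped. Nr5a2 held a large share of it, and the sum without Nr5a2 was 1455, 799 and 820.4 in XY and 649.9, 575 and 580.0 in XX. Of the sums without Nr5a2, Gja1 made up 697, 283 and 289 in XY and 201, 47.1 and 18.7 in XX. These sums thus lean on Gja1 and do not show a joint rise of the markers.

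Genes whose values over the 6 arrays followed a marker most closely were sought among 12425 genes, by Pearson's r over 6 arrays. They were Lmbr1l and Epas1 for Inha (both 0.999), Zdhhc16 (0.999) and Ipmk (0.997) for Gja1, Nme4 (0.995) and Gmps (0.993) for Fshr, and Rdh5 (0.994) and Mboat4 (0.990) for Inhbb. Cep97 (0.997) and Gm29722 (0.994) were closest to Kitl, Abcc5 (0.999) and Golga1 (0.995) to Foxl2, and Rbm17 (0.993) and Mterf1a (0.984) to Nr5a2. With so few arrays and so many genes such values are a description of pattern only. Epas1, which encodes a hypoxia-inducible factor subunit, had a log2 change of 2.21 ± 0.56 (SE, limma's adjusted p = 0.106).

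Other granulosa genes were described from a list of 20 that respond to FSH or estradiol, of which 17 had a probe set. None passed limma's adjusted p, against 1.84% of all genes. At an unadjusted p under 0.05, 2 were higher and 0 lower, against 12.6% and 9.25% of all genes. Their median log2 change was 0.56, beside 0.04 for all genes. The change was positive for 15 of the 17, and for 9777 of all 18193 genes. On each array, only 3 or 4 of the 17 lay above the receptor limit. Ccnd2, the FSH-induced cyclin D2, read 344, 312 and 414 in XY and 216, 76.4 and 67.5 in XX. This is the array order of Inha and Gja1 among the XX samples, with XX 1 the highest of them. Its change was 1.81 ± 0.52 (SE, limma's adjusted p = 0.133), and it passed without XX 1 at 2.45 (adjusted p = 0.0343). Ccnd2 is a cell cycle gene of many cell types. Prkar2b, a regulatory subunit of protein kinase A, had a change of 0.77, the progesterone receptor gene Pgr 0.75, and Fst, for the activin-binding follistatin, 0.56, all short of the threshold. The receptor gene Esr2, for estrogen receptor beta, had -0.64.

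Of 15 cumulus and ovulation genes, 13 were measured, 1 rose and 0 fell. Npr2 encodes the guanylyl cyclase through which cumulus cells make cyclic GMP for the oocyte. It read 34.05, 45.5 and 52.6 in XY and 4.19, 10.3 and 7.69 in XX. The groups did not overlap, and XX 1 was here the lowest array, unlike for Gja1 and Inha. The log2 change was 1.62 ± 0.25 (SE, limma's adjusted p = 0.0386), where 1.17% of all genes were called higher. All 6 values lay below the receptor limit, and XX values were within the range of Y-linked probe sets in XX. The call was lost on leaving out any single array other than XX 1 (adjusted p from 0.0967 to 0.138), and with the replicate block (0.145). The ligand gene Nppc read 11.97, 62.0 and 61.6 in XY and 36.0, 24.5 and 32.1 in XX. Egfr, the receptor of the ovulatory growth factors, had a change of -0.92 (adjusted p = 0.0965), Vcan, a matrix proteoglycan of the expanding cumulus, 0.64 (0.165), and Ptgs2, the prostaglandin synthase gene of ovulation, 0.53 (0.315).

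Among 24 genes of activin, inhibin and AMH signalling, 0 rose and 1 fell, beside 0.665% of all genes called lower. Acvr1b encodes ALK4, the type I activin receptor. Its brighter probe set read 576, 378 and 523 in XY and 1394, 1780 and 2322 in XX, a log2 change of -1.54 ± 0.19 (SE, limma's adjusted p = 0.0279). The groups did not overlap, and XX 1 was with the other XX arrays. The second set of Acvr1b went the opposite way, with 73.6, 63.5 and 57.3 in XY, 8.65, 4.29 and 33.1 in XX and a change of 1.73 (adjusted p = 0.0844). The brighter set lay above the receptor limit on all 6 arrays, and the second set below it on all 6. The mean of both was 0.10, so the direction of the gene depended on the probe set. The type II receptor gene Acvr2a had a change of -0.75 and the BMP receptor gene Bmpr2 one of 0.56, neither past the threshold. Amhr2, the receptor gene of the Amh ligand, read 55.0, 34.1 and 44.4 in XY and 32.3, 14.1 and 27.3 in XX, below the receptor limit throughout.

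Of 8 genes by which the oocyte takes part in this exchange, 1 rose and 1 fell, beside 1.17% of all genes called higher and 0.665% called lower. Gjb2, for connexin 26, read 303, 182 and 298 in XY and 60.5, 86.2 and 119.7 in XX. Its log2 change of 1.65 ± 0.24 (SE, limma's adjusted p = 0.0348) did not pass with the deposited values (adjusted p = 0.086) or median scaling (0.066). Bmp15, which lies on the X chromosome and encodes a growth factor secreted by the oocyte, fell by 1.34 ± 0.22 (SE, limma's adjusted p = 0.047) on its brightest set. That set too did not pass with the deposited values (adjusted p = 0.0884). The other Bmp15 sets were also lower in XY, with changes of -2.22 (limma's adjusted p = 0.0185) and -1.63 (0.0642). The mean of the Bmp15 sets gave -1.73 (0.00728). Gja4, for connexin 37 on the oocyte side of the junctions, had a change of -1.03 (adjusted p = 0.0763), and Fgf8, for a growth factor that the oocyte sends to cumulus cells, one of -0.94 (0.143). Kit, the receptor gene of the Kitl product, read 1371, 929 and 953 in XY and 1195, 1669 and 2529 in XX on its brightest set. The change of that set was -0.31 ± 0.19 (SE, limma's adjusted p = 0.436). Another, dimmer Kit set had a larger change in the same direction, -1.22 ± 0.26 (SE, limma's adjusted p = 0.073), also short of the threshold. The size of the Kit difference thus depended on the probe set. The calls for Acvr1b, Gjb2 and the brightest Bmp15 set were each lost on leaving out any single array other than XX 1. Their limma's adjusted p was then from 0.0967 to 0.15. They were also lost with the replicate block (0.145 to 0.156). In all these fits, no probe set on the array was called lower in XY, so the Bmp15 set at -2.22 was not called either.

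Lists for other cells of the ovary had no gene past the threshold, beside 1.84% of all genes. With lists this short, the lack of a call says little about these cells. The median change of all genes was 0.04. In the theca and stroma list, 11 of 12 were measured, with a median change of 0.32 and a summed intensity of 399.7 to 652 in XY and 186 to 308 in XX. Dcn, which encodes the stromal proteoglycan decorin and is also made by other cells, read 320.1, 199 and 135 in XY and 75.1, 90.1 and 20.1 in XX, a change of 1.85 ± 0.50 (SE, limma's adjusted p = 0.121). The smooth muscle actin gene Acta2 read 152, 152 and 76.1 in XY and 16.8, 92.1 and 104 in XX, a change of 1.10. The transcription factor genes Tcf21 and Gli1 had 0.37 and 0.34. Dcn and Acta2 made up much of the XY sums of this list. No other gene of the list lay above the receptor limit on any array. The defining theca gene Cyp17a1 and the collagen genes Col1a1 and Col3a1 lay below the receptor limit on all arrays. In the blood and immune list, 6 of 8 were measured, with a median of 0.49 and a summed intensity of 393 to 461 in XY and 219 to 247 in XX. Csf1r, the receptor gene of macrophages, had a change of 1.40 (limma's adjusted p = 0.0559) on its brightest set. It passed without XX 1 at 1.67 (0.0345), where 1.79% of all probe sets were called higher. The mean of its probe sets gave 0.73 (0.0912). Ptprc, for the common leukocyte antigen, read at most 23.3. The macrophage genes Cd68 and Lyz2 had 0.59 and 0.39. The Sertoli and testis list had 10 of 11 measured and a median of 0.13, with Ptgds at 1.08 (adjusted p = 0.252), Rhox5 at 0.69 (0.196), Fgf9 at -0.55 (0.305) and Sox8 at -0.81 (0.085). Sox9, the Sertoli-defining factor, lay below the receptor limit on every array. Endothelial and surface epithelial genes, with 6 and 7 measured, had medians of -0.18 and 0.27. Among the endothelial genes, Kdr had 0.94, Emcn 0.50, Cdh5 -0.35 and Tie1 -0.58. Among the epithelial genes, the keratin genes Krt8 and Krt18 had -1.11 (0.0582) and 0.56, Lgr5 had 0.42 and Upk3b -0.52. The oocyte identity list of 12 genes had a median of -0.13, with only Bmp15 past the threshold, beside 0.665% of all genes called lower. There, H1f8, the oocyte linker histone gene, had -0.74, the zona pellucida gene Zp1 -0.46, and Figla, for an oocyte transcription factor, 0.40 (-0.06 with median scaling). Whether other cells had a part in the marker values was not tested.

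Seen array by array, the lists differed in where XX 1 lay. With each gene centred over the 6 arrays and the median of all genes taken off, the median of the 9 markers was 0.15, 0.09 and -0.04 in XY and 0.21, -0.22 and -0.15 in XX 1, XX 2 and XX 3. XX 1 had the highest value of all. The FSH and estradiol list gave 0.29, 0.23 and 0.22 in XY and -0.04, -0.23 and -0.09 in XX, and there XX 1 stayed below the XY arrays. The cumulus and ovulation list gave 0.20, 0.11 and 0.21 in XY and -0.00, -0.10 and -0.09 in XX. The blood and immune list was separated in the same way, with 0.17, 0.35 and 0.20 in XY and 0.02, -0.18 and -0.28 in XX. The oocyte identity list ran the opposite way, with -0.12, -0.13 and -0.07 in XY and 0.04, 0.06 and 0.18 in XX, as did the oocyte partner list. These centred medians compare arrays with each other and carry no level of expression. On each array, 3 or 4 of the 17 FSH and estradiol genes and 1 of the 13 cumulus genes lay above the receptor limit. Of the 6 blood and immune genes, at most 1 did. The cumulus gene above it was Egfr, which ran against its list, with a change of -0.92. The summed intensity of the cumulus list was 618, 562 and 581 in XY and 493, 848 and 934 in XX, so the groups overlapped. In deposited values the receptor median was also higher on every XY array (13.0 to 15.3) than on any XX array (10.4 to 11.5). The part of background in these separations was not tested.

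**Figure D4:**
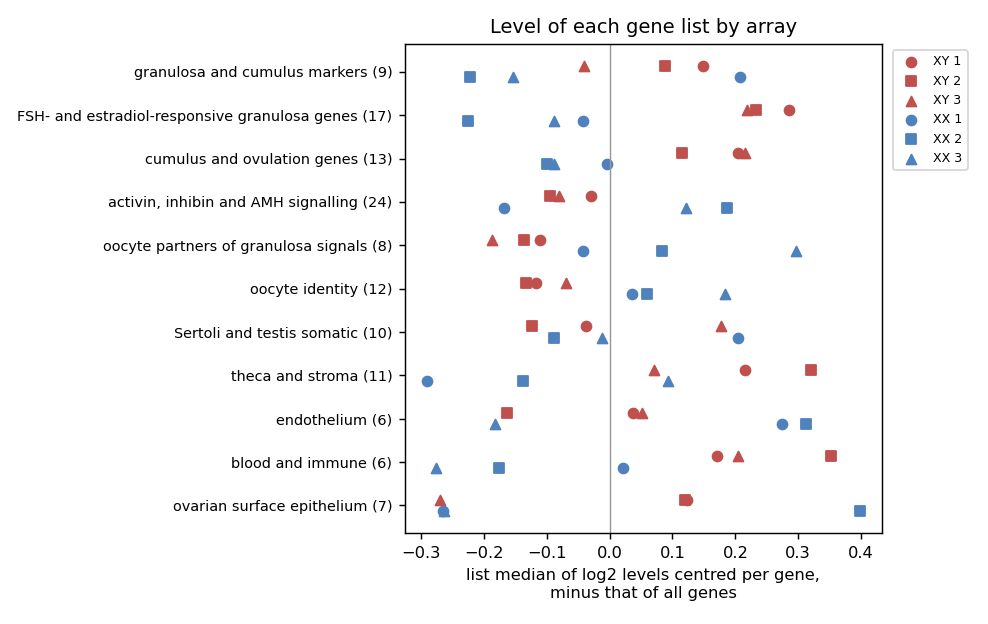
For each gene list (number of measured genes in brackets), the median over its genes of the log2 level centred per gene, minus that of all genes, on each XY (red) and XX (blue) array. XX 1 is the highest array for the 9 markers. All XY arrays lie above all XX arrays for the 17 FSH and estradiol, 13 cumulus and ovulation and 6 blood and immune genes. Few of these genes lay above the receptor limit on each array. Among the cumulus and ovulation genes only Egfr did, and it was lower in XY. The XY arrays lie below the XX arrays for the 12 oocyte identity and 8 oocyte partner genes.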

How the data were processed

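Gene expression was measured on 6 Affymetrix 3' arrays, 3 XY and 3 XX. The deposited intensity values, 1 per probe set on a linear scale, were made by the authors with MAS5, per the submitters' processing notes. For MAS5, the version, the scaling target and any detection call were not given in the sources used here. Array medians were 24.5 to 31.4 and trimmed means (2% at each end) 194 to 332, and the number of arrays limits the precision.

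The 64 control probe sets were left out. The other 45037 were quantile-normalized, 9 was added, log2 was taken, and XY minus XX was fitted with limma 3.58.1 (R 4.3.3, lmFit and eBayes), adjusted by Benjamini-Hochberg over all probe sets. The pseudocount of 9 is close to the lower quartile of the deposited values. No filter was applied. The fit was tested on simulated data. Of these probe sets, 34945 carried 1 gene symbol (34741 matched to RefSeq by gene ID), 932 several and 9160 none. Per gene, the brightest probe set stood for 18193 genes. Named genes were all markers, in each list up to 4 genes with the smallest p and every gene past the threshold, the 2 closest in pattern to each marker that met the filter, and Y-linked genes as a label check. Kit, Amhr2, Nppc, Gdf9, Zp2, Zp3, Esr2, Cyp17a1, Col1a1, Col3a1 and Sox9 lie outside this rule and were chosen after their values were seen.

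Members and lists were chosen with earlier results of these data known. Replicate numbers did not pair the arrays. Alternatives covered scaling, pseudocount, filter, variance model, probe set choice, the Actb ratio, the replicate block and leaving out arrays.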

Additional observations from a re-analysis of the deposited data

How the results depend on the processing

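Of 45037 probe sets, 617 passed the threshold (324 higher and 293 lower in XY). The count was 2192 at an adjusted p of 0.1, 164 with the deposited scaling (101 higher, 63 lower), 0 and 2153 with pseudocounts of 1 and 32, 2413 after the filter, 2690 with an intensity trend and robust variance, 1454 with array weights, 2 with the replicate block, 0 with the Actb covariate and 0 with XX 1 alone, an alternative chosen after seeing the data. Leaving out 1 array gave 4 to 1584, the highest without XX 1. Median scaling called 220 higher and 578 lower, with a median change over all probe sets of -0.11, and trimmed-mean scaling called 562 and 196, with a median of 0.18, beside -0.00 as reported.

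The count of marker probe sets, 0, was 3 with the trend and robust variance, 1 with array weights and 0 to 4 on leaving out 1 array. The count of list genes, 4, was 2 with the deposited scaling, 0 and 10 with pseudocounts of 1 and 32, 9 after the filter, 12 with the trend, 8 with array weights, 0 with the block, 0 with the covariate, 0 with XX 1 alone, and 0 to 10 on leaving out 1 array. The cause of these shifts was not tested.

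Signs turned for some dim probe sets. On leaving out 1 array, the range was -0.47 to 0.15 for Inhba 1422053_at, -0.16 to 0.068 for Inhba 1458291_at, -0.43 to 0.59 for Inhbb 1426859_at, -0.095 to 0.71 for Kitl 1426152_a_at, -0.57 to 0.017 for Kitl 1415854_at and -0.18 to 0.026 for Amh. With deposited scaling, Inhba 1458291_at was 0.069, Inhbb 1426859_at 0.052 and Amh 0.000157. With median scaling, Inhba 1458291_at was 0.012, Foxl2 1456410_at -0.077 and Figla -0.064. With trimmed-mean scaling, Inhba was 0.13 and 0.17, Inhbb 1426859_at 0.27 and Amh 0.089. With array weights, Inhba 1458291_at was 0.012 and Inhbb 1426859_at 0.014, and with a pseudocount of 32 the second of these was 0.012. With the covariate, Kitl 1426152_a_at was -0.33 and Foxl2 1456410_at -0.22. With XX 1 alone these were -0.30 and -0.25, and Gja1 1415801_at was -0.17. Averaging the Acvr1b probe sets gave 0.10. Signal over background limits many readings, since 11 of the 23 marker probe sets lay on no array above the receptor limit. The replicate numbers share no litter or day in the labels, and same-number deviations correlated at -0.06, 0.00 and -0.03, with 0 of 3 XY arrays closest to their own number.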
